A study of Mus musculus with 4 samples.

Results

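Among cells sorted from mouse lung, 369 of 9391 that passed the cell filter carried many transcripts of Hhip and few or none of 3 smooth muscle genes, Actg2, Cnn1 and Actc1. They are called Hhip-high cells here. Each had 500 genes or more and no more than 10% of mitochondrial UMIs (unique molecular identifiers, each counting 1 captured transcript), no UMI of the lineage genes Epcam (epithelial), Ptprc (leukocyte) or Pecam1 (endothelial), at least 5 UMIs of Hhip, at most 3 UMIs of Actg2, Cnn1 and Actc1 together (the muscle sum), and under 10 UMIs of the adventitial fibroblast genes Clec3b, Serpinf1 and Pi16 together (the adventitial sum). The donor mice, aged about 8 weeks and dosed with tamoxifen, were Gli1CreERT2/WT and Rosa26mTmG/WT, so every set of cells here shares the dosing and both alleles, and only CD45neg CD31neg lung cells were taken. In this cross, Cre is driven from the Gli1 locus, and a cell that has recombined the reporter makes EGFP in place of tdTomato. The labels name conflicting strains, so none is stated. The 4 samples have the same labels and were pooled in 1 matrix whose 11118 barcodes cannot be assigned to a sample. They count as 1 sample without replicates, so no test was made, and every interval below is a 95% interval for counting error only.

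Hhip encodes a membrane protein that binds hedgehog ligands and limits their signal, and the gene is itself a target of that signal. Myofibroblasts are mesenchymal cells that combine a contractile actin and myosin apparatus with secretion of matrix. In the lung they are known for their place around alveolar ducts and in growing septa, where they lay down elastin, and airway smooth muscle shares many of their contractile genes.

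The starting 11118 barcodes gave 9391 cells after the filter, 6908 of them without lineage UMIs, 762 of these with 5 or more Hhip UMIs, 713 within the muscle limit and 369 within the adventitial limit. The comparison set, called Hhip-positive muscle cells, met the same limits on filter, lineage and adventitial genes but had at least 3 Hhip UMIs and a muscle sum of at least 10, and it held 21 cells. The remaining 6518 lineage-negative cells formed a further set. Within it, 1807 alveolar-type cells (Inmt, Npnt and Limch1 together at 10 or more) and 2192 adventitial-type cells (adventitial sum of 10 or more) served for single values, both with Hhip at 0 by definition. Hhip-high cells were shallow, with 1024 to 23161 UMIs and a median of 3889, against medians of 5288 in the muscle cells, 5065 in alveolar-type and 8773 in adventitial-type cells. All levels are therefore UMIs summed over the cells of a set and scaled to the set's total, as CPM. The 4 samples had 65156149 to 74901791 reads each.

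Hhip lies on chromosome 8 (79965851 to 80058006, mm10), Aspn on chromosome 13 (49544443 to 49567565), Fgf18 on chromosome 11 (33117430 to 33147400), Enpp2 on chromosome 15 (54838901 to 54952892) and Mustn1 on chromosome 14 (30879200 to 30881610). Of the genes that limited the set, Actg2 is on chromosome 6 (83512905 to 83536265), Cnn1 on chromosome 9 (22099216 to 22109630) and Actc1 on chromosome 2 (114047282 to 114053548). Acta2, the smooth muscle alpha actin gene, is on chromosome 19 (34241090 to 34255590). The rule itself held Actc1 low and Hhip high in Hhip-high cells. Acta2, which it did not use, was lower there than in muscle cells but present. For this reason the 250 bases before the RefSeq start of Actc1, Acta2 and Hhip (build GRCm38.p6) are shown. Each reads 5′ to 3′ on the gene's own strand, from chr2:114052876-114053125 (minus strand), chr19:34255374-34255623 (minus strand) and chr8:80058009-80058258 (minus strand). Capitals mark a CArG box, the binding site of serum response factor, which drives many muscle genes.

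Actc1: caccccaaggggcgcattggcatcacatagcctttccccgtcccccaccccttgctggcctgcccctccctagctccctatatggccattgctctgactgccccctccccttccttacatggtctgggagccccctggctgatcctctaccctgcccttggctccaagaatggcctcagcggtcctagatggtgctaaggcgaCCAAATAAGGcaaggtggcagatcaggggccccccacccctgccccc

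Acta2: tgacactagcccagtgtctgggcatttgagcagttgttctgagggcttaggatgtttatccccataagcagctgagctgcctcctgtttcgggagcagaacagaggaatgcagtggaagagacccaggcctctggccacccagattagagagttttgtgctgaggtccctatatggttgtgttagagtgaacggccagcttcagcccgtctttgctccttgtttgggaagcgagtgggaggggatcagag

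Hhip: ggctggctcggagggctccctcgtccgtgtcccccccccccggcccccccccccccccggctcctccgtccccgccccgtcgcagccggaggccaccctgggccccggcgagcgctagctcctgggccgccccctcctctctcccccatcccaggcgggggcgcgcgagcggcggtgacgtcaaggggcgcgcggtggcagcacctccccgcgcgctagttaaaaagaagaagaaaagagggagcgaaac

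The single CArG box, CCAAATAAGG, began 47 bases before the start of Actc1. The other 6 promoters with an entry in the table (Acta2, Cnn1, Hhip, Aspn, Fgf18 and Mustn1) had no CArG box in this window. Of 32851 promoters, 482 (1.47%) held such a box. The motif GACCACCCA, bound by GLI factors, was in 74 (0.225%) and in none of the 7. Both motifs were searched on both strands without mismatches, so a near match, known to be bound in some muscle genes, was not counted. The Acta2 window holds such near matches to the CArG box, ccctatatgg and ccttgtttgg, and the Actc1 window also holds ccctatatgg. A match is a run of letters in this window and says nothing of binding.

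The markers given with the set were abundant in its cells. Hhip, which chose the cells, had 5 to 73 UMIs per Hhip-high cell with a median of 18, and 305 of 369 cells had at least 10. Aspn, which encodes asporin, a small leucine-rich matrix protein, had 0 to 80 UMIs with a median of 6 and was detected in 89.7% of the cells. Mustn1, known from musculoskeletal tissue, was in 95.9% with a median of 9, and Enpp2, which encodes autotaxin, the enzyme that makes lysophosphatidic acid, in 90.5% with a median of 5. Fgf18, a growth factor gene, was in 56.9% of the cells with a median of 1 and a maximum of 8. The same 4 genes were detected in 1.11% (Fgf18) to 18.8% (Mustn1) of alveolar-type cells and in 5.16% (Fgf18) to 41.5% (Aspn) of the deeper adventitial-type cells, where Mustn1 was in 31.6%. With every cell thinned to 2000 UMIs, Aspn was in 83.8% of Hhip-high and 18.6% of adventitial-type cells and Mustn1 in 92.3% and 11.8%. Without thinning, the 4 genes were in 3.10% (Fgf18, Enpp2) to 9.11% (Mustn1) of 1680 cells with at least 100 Sftpc UMIs, which are alveolar type 2 epithelial cells and had a median depth of 10428 UMIs.

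Of these markers, Mustn1 was at about the same level in Hhip-high and Hhip-positive muscle cells and the others were somewhat higher in Hhip-high cells. Mustn1 was at 2685 CPM against 2693 (ratio 0.997, 0.894 to 1.11), though at 0.471 when all cells were thinned to 5000 UMIs before the rule was applied (76 and 12 cells). Aspn was at 2206 against 1617 CPM (1.36, 1.19 to 1.57), Enpp2 at 1293 against 740 CPM (1.75, 1.42 to 2.16) and Fgf18 at 274 against 83.9 CPM (3.26, 1.81 to 6.59). Per muscle cell, Aspn had 0 to 33 UMIs with a median of 7 and Fgf18 had 0 to 3 with a median of 0, so the cells of both sets overlapped for each of these genes.

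**Figure D1:**
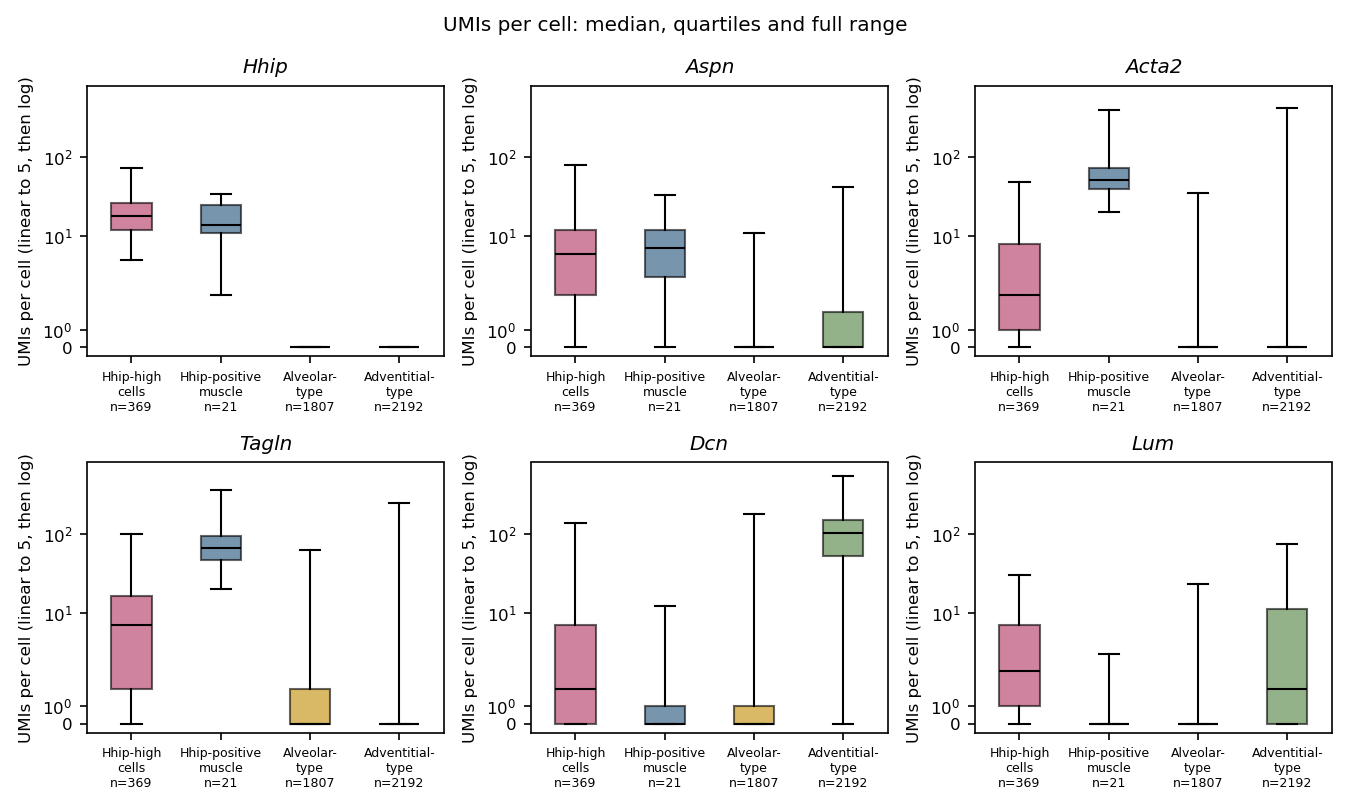
UMIs per cell of Hhip, Aspn, Acta2, Tagln, Dcn and Lum (vertical axis, linear to 5 and then logarithmic) in Hhip-high, Hhip-positive muscle, alveolar-type and adventitial-type cells, with boxes for quartiles, a line for the median and whiskers for the full range. Acta2 runs from 0 to 48 with a median of 3 in Hhip-high cells and from 20 to 401 with a median of 51 in muscle cells, whereas the ranges of Aspn overlap throughout.

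A description of these cells as lacking muscle actin genes did not hold for Acta2. Acta2 was detected in 79.1% of Hhip-high cells (74.6 to 83.2, Clopper-Pearson), with 0 to 48 UMIs per cell and a median of 3. It was absent from 77 cells, at 1 to 4 UMIs in 143 and at 5 or more in 149. In alveolar type 2 cells, which should not express it, 8.15% had a UMI. With every cell thinned to 2000 UMIs, the shares were 69.8% in Hhip-high, 8.16% in alveolar-type, 9.14% in adventitial-type and 2.20% in alveolar type 2 cells. Shallower cells were left out: 5 Hhip-high, 66 alveolar-type and 3 adventitial-type cells.

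Actg2, the enteric smooth muscle actin gene, limited the set and still had 1 to 3 UMIs in 29.0% of its cells (24.4 to 33.9), against 1.01% of alveolar type 2 cells. Cnn1, which encodes calponin, was in 3.52% and Actc1, the cardiac actin gene, in 1.08%, the latter close to the 1.01% of alveolar type 2 cells. The muscle sum was 0 in 251 cells (68.0%), 1 in 73, 2 in 34 and 3 in 11. The cells thus had few or no UMIs of Cnn1 and Actc1 but carried Acta2 in most cases, and they are named below only by Hhip.

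Against Hhip-positive muscle cells, the contractile genes were lower almost throughout, though most of them were still well detected. Of 24 genes of the contractile list with at least 30 UMIs over both sets, none of which the rule used, 23 were at a ratio of 0.5 or less and 0 at 2 or more. The list's median was 0.195 beside 1.07 over all genes. Over all 6582 genes, 445 (6.76%) were at 0.5 or less and 998 (15.2%) at 2 or more. A set with 0 UMIs of a gene was put at a floor of 3 UMIs over the set, and such a ratio was counted only in the direction it bounds. The rule itself set 3 muscle genes low in 1 set and high in the other, so this is a description of that choice.

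Acta2 had 20 to 401 UMIs in each muscle cell with a median of 51, and its level was 1369 CPM in Hhip-high and 13870.5 CPM in muscle cells (ratio 0.0987, 0.0927 to 0.105). Tagln, which encodes the actin-binding protein transgelin, had 0 to 99 UMIs (median 7) in Hhip-high and 20 to 358 (median 65) in muscle cells, at 2636 against 13527 CPM (0.195). Tpm2, a tropomyosin gene, had 0 to 17 UMIs (median 1) against 7 to 223 (median 28), at 455 against 6439 CPM (0.0707). Every muscle cell had Acta2, Tagln and Tpm2, and the upper Hhip-high cells reached into the muscle range for all of them. Myh11, the smooth muscle myosin heavy chain, was in 34.4% of Hhip-high cells with at most 10 UMIs and in each muscle cell, at 139 against 2724 CPM (0.0509, 0.0428 to 0.0603). A single muscle cell held 153 of the 357 Myh11 UMIs of its set (42.9%), and without that cell the Myh11 ratio was 0.0765, that of Acta2 0.109 and that of Tpm2 0.0826. Des, the muscle intermediate filament desmin, was at 221 against 1617 CPM (0.137).

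Genes for the regulation and anchoring of the contractile apparatus were lower as well. Myl9, a myosin light chain gene, was at 601 against 3716 CPM (0.162) and Mylk, the kinase that activates it, at 319.8 against 1785 CPM (0.179). Cald1, which encodes caldesmon, was at 405 against 1205 CPM (0.336), and Pdlim3, a Z-disc linker gene, at 226 against 496 CPM (0.456). The exception among the 24 was Cnn2, the calponin of non-muscle cells, at 126 against 252 CPM (0.501). Myocd, the coactivator of serum response factor in smooth muscle, was at 24.5 against 76.3 CPM.

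Set beside cells that are not muscle, Hhip-high cells were between them and muscle cells for part of the contractile genes. Of 24 genes, 12 were at 2 or more and 4 at 0.5 or less against alveolar-type cells, beside 6.63% and 12.4% of all genes, and 14 and 0 of 24 against adventitial-type cells, beside 8.64% and 11%. The 4 were Actn1 (0.303), an actin crosslinker gene, Synm (0.403), an intermediate filament gene, Cnn2 (0.457) and Csrp1 (0.482), and Mylk was at 319.8 against 489.6 CPM in alveolar-type cells (0.653). Acta2 was 1369 CPM in Hhip-high, 63.5 in alveolar-type and 133 in adventitial-type cells. Tagln was at 2636, 336 and 93.8 CPM, Myh11 at 139, 2.24 and 9.37 CPM, Pdlim3 at 226, 2.95 and 3.01 CPM and Lmod1, which encodes the actin nucleator leiomodin, at 62.7, 0.814 and 4.39 CPM. Against the 6518 other lineage-negative cells, 11 of 26 contractile genes were at 2 or more and 4 at 0.5 or less, with a median of 1.66 beside 1.04 over all genes, where 954 of 13672 (6.98%) were at 2 or more and 1682 (12.3%) at 0.5 or less.

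**Figure D2:**
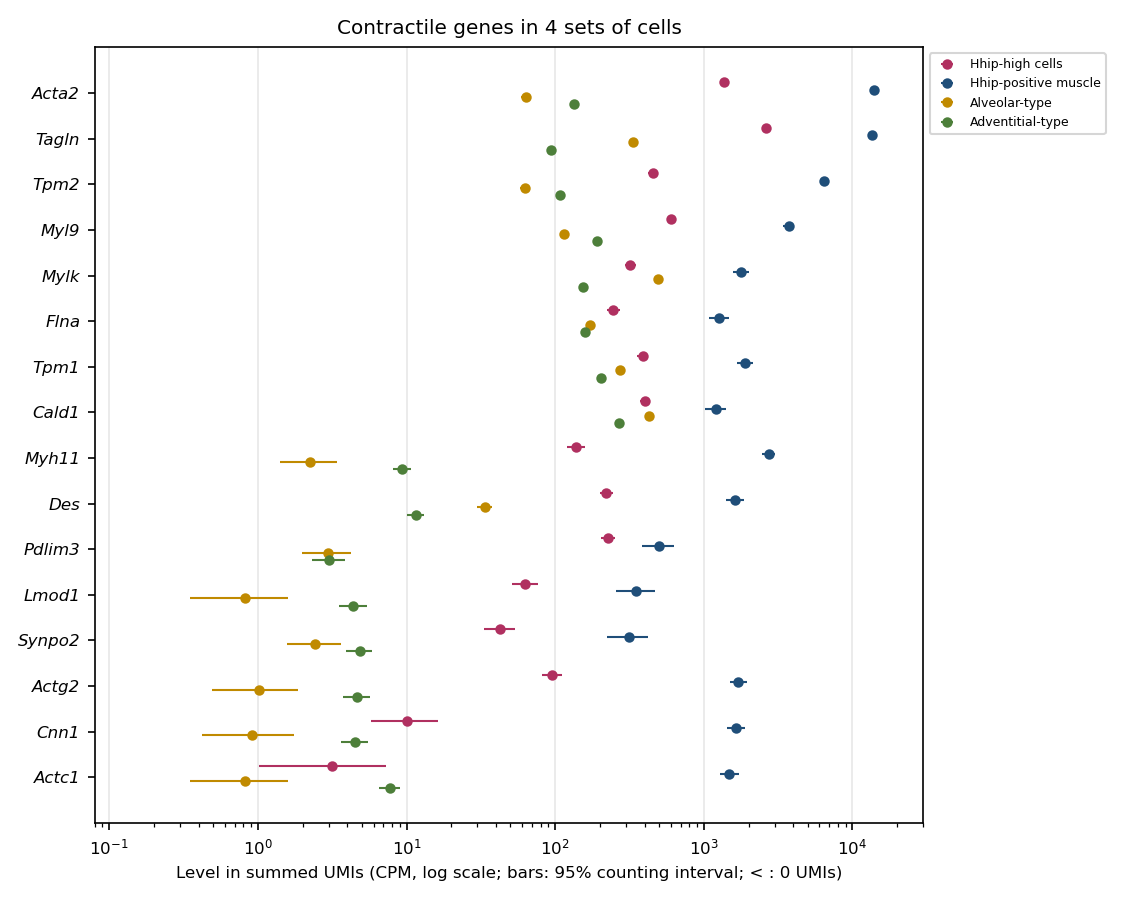
Level of 16 contractile genes (horizontal axis, CPM of summed UMIs, log scale, bars 95% counting intervals) in Hhip-high, Hhip-positive muscle, alveolar-type and adventitial-type cells, with a set without UMIs drawn as an arrowhead. Hhip-high cells lie between muscle cells and both other sets for genes such as Acta2, at 1369 CPM against 13870.5, 63.5 and 133.

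Among cells with 5 or more Hhip UMIs and the same other limits, Acta2 and Tagln were higher at each step of the muscle sum. The levels are pooled over the cells of a step, so they cannot show whether the cells fall into separate groups. Acta2 was 959.6 CPM in the 251 cells with a muscle sum of 0, 1938 in the 73 with 1, 2725 in the 45 with 2 to 3, 6611 in 24 cells with 4 to 9 and 14000.3 in 19 cells with 10 or more. Tagln was at 1888, 3827, 4884, 9051 and 13680.3 CPM over the same steps. The last 2 steps are outside the Hhip-high set, and median depth was 3885, 3832, 3934, 4512 and 5388 UMIs. Hhip itself was at 4693, 4775 and 4749 CPM in the first 3 steps and at 3143 and 2920.1 CPM in the others.

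Matrix genes ran the other way or with the muscle sum, depending on the gene. Lum was at 1030.3, 964, 829.9, 404 and 80.0 CPM and Dcn at 1589.5, 1801, 1319.8, 553 and 152 CPM. Ogn, which encodes osteoglycin, was at 646, 820.3, 985, 1203 and 1872 CPM, so proteoglycan genes of 1 family had opposite orders. Ednrb, an endothelin receptor gene, was at 163, 239, 220.0, 606 and 608 CPM. These steps were cut along genes that also define the sets, and their order is given without a test.

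**Figure D3:**
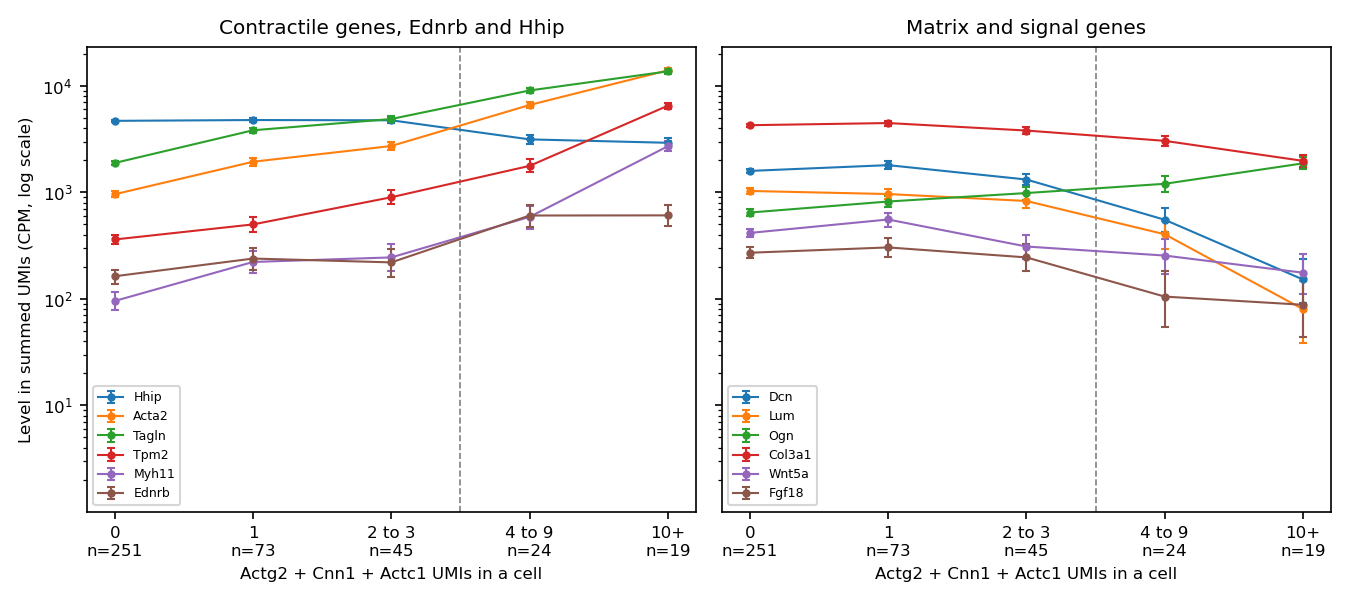
Level of 12 genes (vertical axis, CPM of summed UMIs, log scale, bars 95% counting intervals) in cells with 5 or more Hhip UMIs by the sum of Actg2, Cnn1 and Actc1 UMIs, the dashed line marking the limit of the Hhip-high set. Acta2 is at 959.6 CPM in the first step and at 14000.3 CPM in the last, while Lum is at 1030.3 CPM in the first and at 80.0 CPM in the last.

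The cells just inside and just outside each limit of the rule had the following levels. The 20 cells with 5 to 6 Hhip UMIs had Aspn at 459 and Acta2 at 385 CPM, and 40 cells just outside with 3 to 4 had Aspn at 279 and Acta2 at 376 CPM. For the muscle sum, Acta2 was 2725 CPM at 2 to 3 and 5002 CPM in 11 cells at 4 to 5. For the adventitial sum, Dcn was 575 CPM in 10 cells at 7 to 9 and 3030.4 CPM in 14 cells at 10 to 12. Other genes differed less across this limit, with Hhip at 1378 and 1287 CPM and Mustn1 at 192 and 166 CPM. Aspn was at 335 and 539.7 CPM and Acta2 at 179.7 and 374 CPM. All Hhip-high cells together had Hhip at 4716, Mustn1 at 2685, Aspn at 2206 and Acta2 at 1369 CPM. The cells just inside this limit were thus low in these genes for the set. The 344 cells with 5 or more Hhip UMIs that were left out for their adventitial sum had a median of 7 Hhip UMIs at a median depth of 10436 UMIs, with Hhip at 854, Acta2 at 119 and Dcn at 8619.5 CPM.

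The proteoglycan genes Lum and Dcn were higher in Hhip-high than in muscle cells, Ogn was lower, and collagens were divided. Lum, which encodes lumican, a proteoglycan that spaces collagen fibrils, was in 76.7% of Hhip-high cells with 0 to 30 UMIs and a median of 3, and in 19.0% of muscle cells with at most 4. Its level was 992 against 76.3 CPM (ratio 13, 7.05 to 27.2). Dcn, which encodes decorin of the same family, was in 68.3% with 0 to 137 UMIs and a median of 2, against 28.6% and at most 12, at 1596 against 168 CPM (9.51, 6.27 to 15.2). Without the adventitial limit on the muscle cells, however, the Dcn ratio was 0.553, so its direction depends on that limit, while Lum was still at 7.58. Ogn was lower, at 722 against 1846 CPM (0.391, 0.340 to 0.451).

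Among proteoglycan genes, 4 of 10 were at 2 or more and 2 at 0.5 or less (median 1.45), among collagens 3 and 3 of 17 (1.33), and among elastic fibre and adhesive matrix genes 5 and 1 of 19 (1.15), beside a median of 1.07, with 15.2% of genes at 2 or more and 6.76% at 0.5 or less, over all genes. The collagens at 2 or more were thus near the share over all genes. Col3a1, a fibrillar collagen gene, was at 4251 against 1946 CPM (2.19), but at 1.18 without the adventitial limit on the muscle cells. Col1a1, the main fibrillar collagen gene, was at 1016 against 732 CPM (1.39, 1.13 to 1.72) and Eln, the elastin gene, at 961 against 801 CPM (1.20, 0.983 to 1.48), but both were lower than in muscle cells without that limit (0.567 and 0.597). Col4a1, a basement membrane collagen gene, was lower at 231 against 412 CPM (0.562, 0.421 to 0.762), and Postn, which encodes periostin, was at 3.13 against 221 CPM (0.0142). Against the other lineage-negative cells, 1 of 20 collagens was at 2 or more and 9 at 0.5 or less, beside 6.98% and 12.3% of all genes. High collagen levels were thus not shared against that set.

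Growth factor genes differed from muscle cells gene by gene. In the Wnt list, 6 of 14 genes were at 2 or more and 0 at 0.5 or less (median 1.64), beside 15.2% and 6.76% of all genes. Wnt5a, a ligand gene, was in 72.4% of Hhip-high cells with 0 to 15 UMIs and a median of 1, and in 57.1% of muscle cells with at most 4, at 429 against 175 CPM (2.45, 1.62 to 3.89). Wnt11, another ligand gene, was at 113 against 38.1 CPM (2.96). Among secreted antagonists, Wif1 was at 322 against 175 CPM (1.84, or 3.63 without the muscle cell richest in Myh11) and Dkk3 at 143 against 38.1 CPM (3.75). Lgr5, which encodes a receptor for R-spondins, had 78 UMIs in 14.9% of Hhip-high cells and 0 UMIs in the 21 muscle cells, at least 2.14-fold higher against the floor. Its relative Lgr6 was at 99.7 against 168 CPM (0.594), so the 2 receptors differed in direction.

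In the BMP and TGF-beta list, 3 of 22 genes were at 2 or more and 3 at 0.5 or less (median 1.15), the former near the 15.2% of all genes. Bmp5, a ligand gene, was at 409 against 83.9 CPM (4.87) and Bmp3, a ligand gene whose product opposes other BMPs, at 56.4 against 244 CPM (0.231). Among 7 insulin-like growth factor genes, 4 were at 2 or more and 0 at 0.5 or less (median 2.0). Igfbp3, a binding protein gene, was at 596 against 91.6 CPM (6.51), Igfbp5 at 2209 against 1068 CPM (2.07) and Igf1, the ligand gene, at 428 against 214 CPM (2.0). In the FGF list, 3 of 10 were at 2 or more, Fgf18 among them, and 0 at 0.5 or less (median 1.40).

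Several receptor and channel genes of contractile cells were lower in Hhip-high than in muscle cells. Ednrb was in 41.2% of them and in 90.5% of muscle cells, at 184 against 671 CPM (0.275, 0.216 to 0.352). Chrm2, a muscarinic acetylcholine receptor gene, was at 30.7 against 305 CPM (0.101), Kcnk3, a background potassium channel gene, at 94 against 313 CPM (0.301) and Atp2a2, the calcium pump of the sarcoplasmic reticulum, at 174 against 855 CPM (0.203). Of 13 airway smooth muscle receptor genes, 4 reached 30 UMIs and 2 of these were at 0.5 or less (median 0.442). Of 13 calcium and potassium channel genes, 6 reached 30 UMIs and 4 of these were at 0.5 or less (median 0.325), beside 6.76% of all genes. None of the 10 was at 2 or more.

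**Figure D4:**
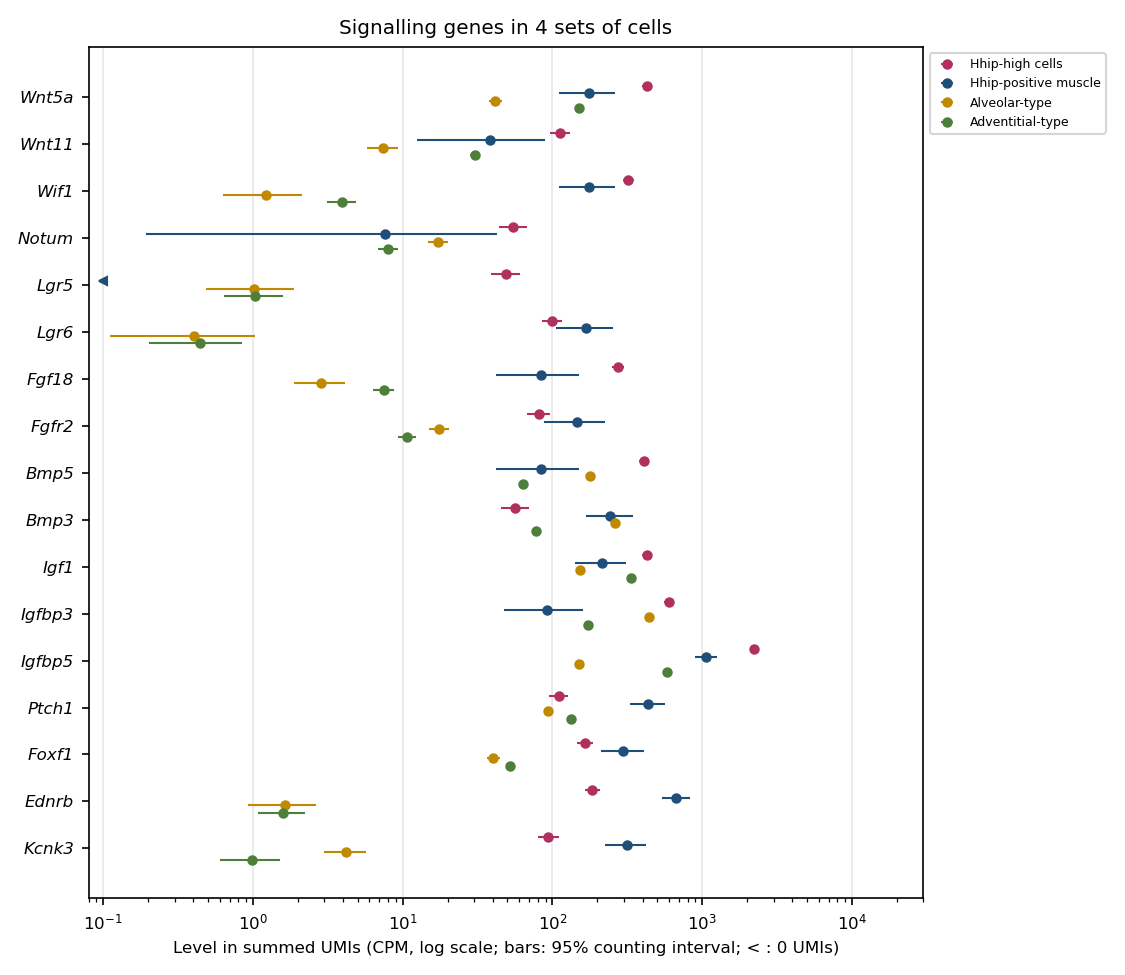
Level of signalling genes (horizontal axis, CPM of summed UMIs, log scale, bars 95% counting intervals) in Hhip-high, Hhip-positive muscle, alveolar-type and adventitial-type cells, with a set without UMIs drawn as an arrowhead. Wnt5a is at 429 CPM in Hhip-high and 175 CPM in muscle cells, while Ednrb is at 184 and 671 CPM.

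Hedgehog pathway genes other than Hhip were mostly no higher in Hhip-high cells than in other lineage-negative cells, with Foxf1 as the exception. Against muscle cells, only 5 of the 15 list genes measured outside the rule reached 30 UMIs. Of these, 1 was at 0.5 or less and 0 at 2 or more (median 1.10), beside 6.76% and 15.2% of all genes. Against the other lineage-negative cells, 1 of 13 was at 2 or more and 3 at 0.5 or less (median 0.720), beside 6.98% and 12.3%. The count at 2 or more was thus near the share over all genes. The lower genes included Cdon (0.207), a coreceptor gene, and Foxl1 (0.243), a target gene. Ptch1, the hedgehog receptor and a target gene, was in 24.9% of Hhip-high and 76.2% of muscle cells, at 110.3 against 435 CPM (0.254, 0.187 to 0.348). It was at 93.1 CPM in alveolar-type and 134 CPM in adventitial-type cells, which have no Hhip UMI. Gli1, a hedgehog transcription factor gene, whose locus carries Cre in these mice, had a UMI in 3.79% of Hhip-high cells, at most 2, and was at 10.0 CPM against 15.3 in muscle cells. At 2000 UMIs the share was 1.10%, against 0.919% in alveolar-type, 4.84% in adventitial-type and 0.0595% in alveolar type 2 cells. Foxf1, a mesenchymal hedgehog target gene, was at 166 against 298 CPM (0.556) and at 2.99-fold (2.62 to 3.39) over the other lineage-negative cells.

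The reporter was detected in part of the Hhip-high cells, as it was in part of the alveolar-type and adventitial-type cells. Egfp was detected in 55.0% of Hhip-high cells with 0 to 79 UMIs and a median of 1, and in 85.7% of muscle cells with a median of 27, at 1983 against 4685 CPM. It was in 48.0% of alveolar-type and 63.3% of adventitial-type cells, or 38.9% and 49.7% at 2000 UMIs. TdTomato was in 19.2% of Hhip-high cells and in 0 of 21 muscle cells, whose upper bound is 16.1%. Alveolar-type cells had it in 15.9% and adventitial-type cells in 4.61%. Alveolar type 2 cells had Egfp in 54.5%, or 19.4% at 2000 UMIs against 46.2% in Hhip-high cells, so a low Egfp count can be background. Pdgfra, a growth factor receptor gene used to mark many lung fibroblasts and myofibroblasts, was in 12.7% of Hhip-high cells and at 80.9 CPM, against 85.1% and 609 CPM in alveolar-type cells and 335 CPM in adventitial-type cells.

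Markers of other cell types were mostly at or below the level of the other lineage-negative cells. All 7 alveolar type 2, all 6 alveolar type 1 and all 5 club and secretory markers were at 0.5 or less there. So were 3 of 6 endothelial and 3 of 8 leukocyte markers, beside 12.3% of all genes at 0.5 or less and 6.98% at 2 or more. That set held 13622 summed CPM of alveolar type 2 markers, against 5213 in Hhip-high and 2797 in adventitial-type cells. Against adventitial-type cells, 0 of 7 alveolar type 2 markers were at 0.5 or less and 1 at 2 or more, beside 11% and 8.64% of all genes. With 7 markers, these counts were near the shares over all genes. Summed levels were above those of the other lineage-negative cells for glia (54.5 against 7.86 CPM), chondrocyte (74.0 against 33.2) and ciliated markers (324 against 185). Erythroid markers were at 0 UMIs. Pericyte markers were split, with 5 of 10 at 2 or more and 2 at 0.5 or less (summed 518 against 267 CPM). Kcnj8 (230.1 CPM) and Gucy1a1 (113 CPM), a potassium channel and a guanylate cyclase gene that pericytes share with other contractile cells, were high, whereas the pericyte genes Higd1b and Trpc6 had 0 UMIs and Notch3 had 1. Of 7 vascular smooth muscle markers 2 were at 2 or more and 1 at 0.5 or less, and Itga7, Gja4 and Map3k7cl had 0 UMIs. Mcam, an adhesion gene of vascular muscle, was at 7.52 CPM against 168 CPM in the Hhip-positive muscle cells.

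Some of the genes with high ratios came from few cells that also carried markers of another cell type. The 12 highest over muscle cells included C3, Gpc3, Lum, Inmt, Dcn, Cxcl14, Cxcl10, Sftpc, Cxcl1, Lyz2 and Msln. The 12 lowest against muscle cells were Actc1, Cnn1, Myh11, Actg2, Tpm2, Acta2, Actn1, Des, Ehd4, Myl9, Itga8 and Msrb1, of which 3 were used by the rule. Of the 369 cells, 30 had 10 or more UMIs of Inmt, Npnt and Limch1 (18 cells), 5 or more of the mesothelial genes Msln and Upk3b (4 cells), 5 or more of cell cycle genes (2 cells) or 20 or more of Sftpc (7 cells), with 1 cell under a pair of marks. These cells held 88.6% of Inmt and 86.7% of Cxcl14 UMIs (alveolar mark), 97.8% of Msln and 71.4% of C3 (mesothelial mark), 99.3% of Ube2c (cycle mark), and 79.8% of Sftpc and 81.7% of Lyz2 (Sftpc mark). The 18 cells with the alveolar mark had a median of 8728 UMIs, against 3790.0 in the 339 cells without any mark. Scrublet called 9 of the 369 cells doublets. What these cells are was not tested.

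Without the 30 cells, the contrast with muscle cells kept 23 of 24 contractile genes at 0.5 or less, where 362 of 5799 genes (6.24%) were so and 822 (14.2%) at 2 or more. Lum was then at a ratio of 15, Dcn at 9.76 and Igfbp3 at 7.14. Other genes that led in these 339 cells were Lpl (22.2), the lipoprotein lipase gene, Bmp5 (5.26), the clock gene Dbp (9.24), and the inflammatory genes Cxcl10 (17.5), Cxcl1 (30.7), Ccl2 (13.1), Icam1 (8.53), Nfkbia (3.95) and Ccl7 (at least 5.70). The muscle cells held 4 UMIs of Cxcl10, 2 of Ccl2, 1 each of Cxcl1 and Lpl and 0 of Ccl7, so these ratios have wide intervals, for example 6.82 to 64.5 for Cxcl10. The ratios of Ccl2 and Ccl7 also rest on few cells. Over all Hhip-high cells, Ccl2 was in 21 cells with 75% of its UMIs in the top 5. Ccl7 was in 14 cells with 84.2% in the top 5. Icam1 and Nfkbia were spread more widely, in 205 and 301 cells. With cells chosen on one portion of the UMIs and values taken from the other, the Cxcl10 ratio over all Hhip-high cells was 2.20 and that of Cxcl1 was 1.01, against 15.3 and 26.2. In the 339 cells without marks, Inmt was at a ratio of 3.40 over muscle cells, with an interval of 0.906 to 28.7. Pdgfra was at 31.3 CPM without the marked cells. Against the other lineage-negative cells, the 339 cells had 977 of 13661 genes (7.15%) at 2 or more and 1911 (14%) at 0.5 or less.

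Chemokine, cytokine and complement genes were at 2 or more against muscle cells in 9 of 12 cases (median 4.52), beside 15.2% of all genes. They were at 0.5 or less against the other lineage-negative cells in 14 of 18 (median 0.251), beside 12.3%. Without the marked cells the former was 5 of 11 (median 1.67), beside 14.2%. Immediate early and heat shock genes, which tissue dissociation is known to induce, were at 45946 summed CPM in Hhip-high and 28672 CPM in muscle cells. Of these 19 genes, 5 were at 2 or more and 1 at 0.5 or less, beside 15.2% and 6.76% of all genes. Fos was at 11854 against 8164 CPM (1.45, 1.37 to 1.55) and Egr1 at 5126 against 3159 CPM (1.62, 1.47 to 1.80). Their part in the chemokine values was not tested.

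The highest ratios over the other lineage-negative cells, by which the following genes were chosen, included those of genes for enzymes, a hormone precursor and a receptor. Pnmt, the enzyme gene that makes adrenaline from noradrenaline, had 0 to 11 UMIs and was detected in 17.9% of Hhip-high cells but in 0 of 1807 alveolar-type cells (upper Clopper-Pearson bound 0.204%), and was at 85.9 against 0.695 CPM (124-fold, 85.1 to 184). Agt, which encodes angiotensinogen, was in 43.1% with at most 6 UMIs, at 166 against 1.95 CPM (85.2-fold). P2ry14, a receptor gene for UDP-sugars, was in 70.2% with at most 16, at 381 against 7.22 CPM (52.8-fold). Cyp2e1, a cytochrome P450 gene, was in 67.5% at a median of 1 and a maximum of 10 (41.8-fold). No single cell held more than 8.03% of the UMIs of any of these 4 genes.

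Other genes among the 12 highest included Csmd1 (58.9 against 1.18 CPM), Enpp2 (43.9-fold), the estrogen receptor gene Gper1 (43.5), Hhip (39.2), Fgf18 (35.1), Ednrb (31.8) and the cadherin gene Cdh4 (29.7). Hhip chose the cells, and the 5 markers were given with them, so these ratios are descriptions. Several were shared with the muscle cells: P2ry14 was at 381 against 450.1 CPM there (0.847) and Cdh4 at 182 against 129.7 CPM (1.40, 0.860 to 2.44). Pnmt was found in 23.8% of muscle cells, Agt in 38.1% and Cyp2e1 in 23.8%. The lowest genes were largely those of adventitial fibroblasts, which the rule limited: Ly6a (ratio 0.00661), Ccl11, Serpinf1, Pi16, Gxylt2, Cd248, Lsamp, Ndufa4l2, Ly6c1, Ebf1, Scara5 and Clec3b.

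Against alveolar-type cells alone, 743 of 11214 genes (6.63%) were at 2 or more and 1395 (12.4%) at 0.5 or less. Aspn was 103-fold higher there (89.4 to 119), Wif1 264-fold (149.8 to 514) and Tcap, a sarcomere gene, 803-fold (273 to 3910.5). Against adventitial-type cells, 1033 of 11950 genes (8.64%) were at 2 or more and 1313 (11%) at 0.5 or less, and Scx, a tendon transcription factor gene, was 197-fold higher (117 to 357). Beside Hhip, the 12 leading genes of both comparisons shared Cyp2e1, P2ry14, Pnmt, Wif1, Lgr6, Sbspon and Sncg. Several of the genes named here were shared with the deeper muscle cells. Tcap was in 101 of 369 Hhip-high and 15 of 21 muscle cells, Scx in 133 and 14, Sbspon in 83 and 13 and Sncg in 43 and 10. Lgr6 was in 33.3% and 61.9%, whereas Cyp2e1 (67.5% and 23.8%) and Wif1 (54.7% and 33.3%) were in more of the Hhip-high cells. Tcap and Scx were singled out after their values were seen.

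The Hhip-high cells were then divided by their Acta2 UMIs. Of the 339 cells without marks, 67 had no Acta2 UMI (median depth 3328 UMIs), 129 had 1 to 4 (3702) and 143 had 5 or more (4035). Between the last and the first, 140 of 3999 genes (3.50%) were at 2 or more and 61 (1.53%) at 0.5 or less. Of 17 contractile genes, 8 were at 2 or more and 0 at 0.5 or less, with a median of 1.98 beside 1.0 over all genes. Acta2 itself chose both groups, and depth differed between them.

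Tagln was in 142 of 143 cells with Acta2 at 5 or more and in 43 of 67 without Acta2, at 4801 against 872 CPM (5.51, 4.78 to 6.37). Myh11 was at 225 against 67.4 CPM (3.34, 1.99 to 6.02), Myl9 at 941 against 324 CPM (2.90), Tpm2 at 718 against 278 CPM (2.58) and Flna, the actin crosslinker filamin, at 370.5 against 135 CPM (2.75). Myl6, a light chain gene of muscle and non-muscle myosin, was in every cell of both groups, at 3014 against 1322 CPM (2.28). The matrix gene Ogn was in 92 of 143 and 20 of 67 cells, at 945 against 240 CPM (3.94, 2.99 to 5.26), and Ednrb was at 279 against 126 CPM (2.21, 1.49 to 3.37). Ogn and Ednrb were thus high with Acta2 both within the Hhip-high cells and in muscle cells.

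Of the markers of the set, Aspn and Mustn1 were higher with Acta2, Hhip was slightly lower and the others were near 1. Hhip was at 4866 against 5621 CPM (0.866, 0.811 to 0.924), Fgf18 at a ratio of 0.996, Enpp2 at 0.928 and Aspn at 3071 against 1848 CPM (1.66, 1.5 to 1.85). Mustn1 was at 3466 against 2265 CPM (1.53, 1.39 to 1.69). Dcn was at 1726 CPM in both (1.0, 0.891 to 1.12) and Lum at 1068 against 1381 CPM (0.773, 0.676 to 0.886), so the higher Dcn of Hhip-high over muscle cells was not mirrored within the set. Lower with Acta2 were Notum, which encodes an enzyme that inactivates Wnt ligands, at 25 against 114 CPM (0.220, 13 cells in each group), Lgr5 at 33.4 against 84.2 CPM (0.396, 14 cells in each), Igfbp3 at 481 against 922 CPM (0.521) and Wif1 at 287 against 451 CPM (0.637, 0.498 to 0.819). The interferon-induced genes Cxcl10, at 307 against 943 CPM (0.326, 0.266 to 0.397), and Irf1, at 350.5 against 712 CPM (0.493), were lower too. Cxcl10 was found in 30 of 143 and 23 of 67 cells. Of 18 immediate early and heat shock genes, 0 were at either limit, with a median of 0.959. Over all genes, 3.50% were at 2 or more and 1.53% at 0.5 or less, so this count was near the share over all genes.

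**Figure D5:**
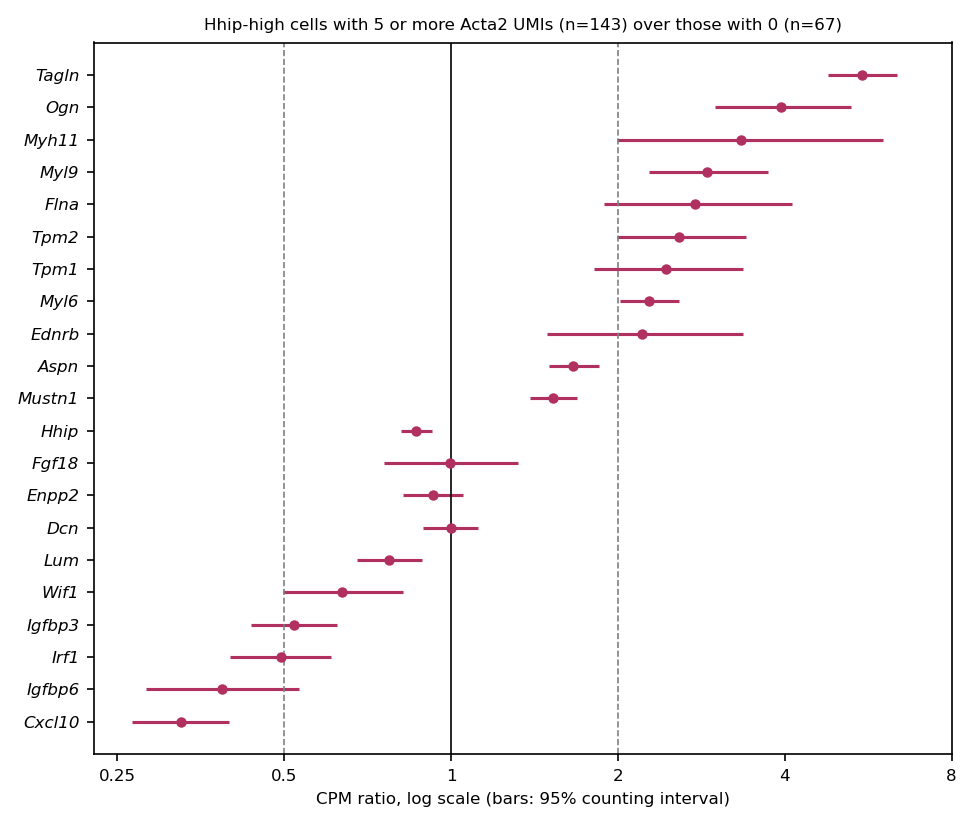
Ratio of CPM (horizontal axis, log scale, bars 95% counting intervals) for 21 genes between Hhip-high cells with 5 or more Acta2 UMIs (143 cells) and those with 0 (67 cells), with dashed lines at 0.5 and 2. Tagln (5.51) and Ogn (3.94) lie to the right, Hhip (0.866) and Dcn (1.0) near 1, and Cxcl10 (0.326) to the left.

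Several of the genes that varied most from cell to cell came from few cells. Over all 369 cells, the marked ones included, and among 2466 genes, the median variance over mean of depth-scaled counts was 1.12. The highest were Sftpc (337), Lyz2 (67.5), Malat1 (50.9), Mt1 (40.5), Slpi (37.4), Ccl2 (32.6), Ccl7 (29.9), Ube2c (24), Ctgf (23.2) and Egfp (20.4). Sftpc, Lyz2, Slpi and Ube2c were largely in the marked cells. Slpi came from 4 cells, Ube2c from 2, Ccl7 from 14 and Ccl2 from 21, while Malat1, a nuclear RNA, and Egfp were spread widely, with 3.99% and 9.11% of their UMIs in the top 5 cells. Ctgf, a target gene of mechanical signals through YAP, was in 55 cells with 51.8% of its UMIs in the top 5.

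In the authors' deposited table of 17 clusters, Hhip and the muscle genes had their highest mean counts in the same cluster. The mean count per cell of cluster 6 in the authors' deposited table was 13.1 for Hhip (log2 fold change 4.31), 7.74 for Aspn, 13.4 for Mustn1, 61.7 for Acta2 (6.93), 48.7 for Tagln and 4.76 for Actg2. Which of the cells each cluster holds was not analysed here.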

How the data were processed

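Droplet 3′ RNA sequencing was used on CD45neg CD31neg lung cells. The submitters' processing notes name Cell Ranger 3.0.0 and mm10. The deposited matrix has unnormalised UMI counts of all 4 samples together. A cluster table deposited by the authors lists, per the file headers, a mean count per cell for each cluster (a score here, since its scaling is not stated), log2 fold changes and adjusted p-values. The p-values were not used, and the test and clustering behind them are not given in the sources. No count model was fitted, since no column names a sample.

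UMIs were summed per set of cells. CPM carry exact Poisson intervals, ratios exact conditional binomial ones and shares Clopper-Pearson ones, at 95%. Genes reaching 30 UMIs over a pair of sets were counted, and a set with 0 UMIs was put at a floor of 3. The scripts were tested on simulated data. Doublets were called with Scrublet (expected rate 0.08) as an alternative, and were kept otherwise. For 36 repeated symbols the first entry was used.

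Named genes were the markers, the members of 37 lists (412 of 414 genes measured), the 12 highest and 12 lowest genes against muscle cells and other lineage-negative cells (at least 100 UMIs and 50 CPM), and the 10 most variable. A few genes that this rule names are not reported here. Genes of the Acta2 split outside the lists were chosen after their values were seen. The members, lists and rules were chosen with earlier results of these data known. Alternatives were the cell filter, doublet removal, the limits of the rule, depth, the weight of cells and the count minimum. The marks of other cell types and the muscle cell left out were added after seeing the data. Gene positions are from GENCODE M21 on mm10 and promoters from RefSeq on GRCm38.p6, where 7 of 11 requested genes had an entry. The scripts ran under Python 3.11.15 with scanpy 1.11.5, scipy 1.17.1, numpy 2.4.6, matplotlib 3.10.9 and pandas 2.3.3.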

Additional observations from a re-analysis of the deposited data

How the results depend on the processing

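The counts that answer the comparisons depended mostly on how many UMIs were compared. With every cell thinned to 5000 UMIs before the rule, 76 Hhip-high cells remained beside 12 muscle cells (369 and 21 otherwise), 429 genes were at 2 or more and 182 at 0.5 or less against muscle cells, and 1075 at 0.5 or less against the other lineage-negative cells. With 21 pairs matched on depth, 149 genes were at 2 or more and 123 at 0.5 or less against muscle cells. The main comparison had 998 and 445, so the counts were nearer to equal with matched depth. With at least 100 UMIs per gene they were 298 and 113. With cells chosen and values taken from separate portions of the UMIs, 156 genes were at 0.5 or less. Against the other lineage-negative cells, 618 genes were at 2 or more with at least 100 UMIs per gene. Fewer genes reach the count minimum in these settings by construction. The contractile genes stayed at 0.5 or less in 18 of 19 to 24 of 24 genes over the alternatives run, apart from 18 of 21 with separate portions and 21 of 24 without the adventitial limit on muscle cells. Of 67 gene ratios at 2 or more or 0.5 or less, 64 stayed on their side of 1 in the alternatives run. The exceptions were Dcn (0.553) and Inmt (0.967) without that limit, and Lyz2 (0.622) in thinned cells, and the cause was not tested. Of 16 ratios nearer to 1, 5 crossed it: Col1a1 (0.567) and Eln (0.597) without that limit, Gli1 with matched depth, and Mustn1 and P2ry14 in several settings. Thresholds on UMIs select differently at different depth, and a shallow cell cannot reach a muscle sum of 10 as easily as a deep one. Without the muscle cell richest in Myh11, chosen after seeing the data, 23 of 24 contractile genes were at 0.5 or less. No paired analysis was possible because the samples form 1 group and share 1 matrix, and for the same reason no sample could be left out.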
